A study of Oryza sativa with 27 samples.

Results

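The 200 probe sets described here stayed low in developing rice grains until 2 days after pollination (DAP) and were high at 4 DAP, in both the top and the bottom part of the dissected material. They were chosen from 57258 rice probe sets on the array by the measured values. Dim probe sets, whose mean over the 27 arrays did not exceed the median rice value, were left out, which left 29332. Neither the 1 DAP nor the 2 DAP group mean was allowed to lie 0.5 or more above the unpollinated mean on the log2 scale in either part, which left 21077. Each was then scored by 4 DAP minus the highest of the unpollinated, 1 DAP and 2 DAP means, taking the smaller of the top and bottom scores, and the 200 highest scores made the group. The values of the unpollinated, 1, 2 and 4 DAP arrays therefore chose the members. They are given as a description, and counts of calls that use them stand beside the share of all probe sets with nothing read from them. The 3 DAP arrays entered the choice only through the filter on the mean, which 197 of the 200 also passed with those arrays left out.

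The study followed rice (Oryza sativa; the cultivar is not named in the labels used here) from before pollination to 4 DAP. Plants were grown in paddy fields, and embryo sacs were cut into a top 3/4, which the labels call mainly endosperm, and a bottom 1/4, which held the embryo. The top part at 4 DAP had 3 arrays, at 3, 2 and 1 DAP 2 arrays each, and unpollinated 3 arrays, and each of the 5 bottom groups (4, 3, 2 and 1 DAP and unpollinated) had 3, which made 27 arrays in 10 groups. The unpollinated material, labelled as embryo and ovary, was the reference. No group carried a genotype or treatment other than pollination. By the labels these are biological replicates, but whether they came from separate plants is not stated, so the p-values below measure only the spread between these samples. For each probe set that spread was pooled over all 10 groups and was not that of the compared arrays alone.

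In cereals the fertilised central cell divides as a syncytium, is then divided into cells, and only later fills with starch and storage protein. Amylose is made by a granule-bound starch synthase, while glutelins and small sulphur-rich allergens of the inhibitor family are laid down in protein bodies. The outer layers of the young grain, the pericarp, are green for a time and hold photosynthetic genes.

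Every value is the signal of a probe set divided by the 75th percentile of its own array, so that 1 equals that percentile, and log2 values below are log2(value + 0.13). A higher value means more of that transcript relative to the rest of the array. Fewer cells of a type and less RNA per cell cannot be told apart in such bulk samples. Arrays of 1 group correlated with r between 0.863 and 0.978. Bottom replicate 3 of 3 and 4 DAP lay farthest from their group means over the probe sets tested, with root mean square log2 deviations of 0.516 and 0.484, against 0.181 to 0.379 on the other 25 arrays. The main results that rest on these arrays are also given without them, and the other counts use all arrays. The 18S ribosomal RNA control ran widely within groups. Of the 5 endosperm markers looked up by symbol 1 was found, NF-YB1, and it is itself a member, so the label of the top part could not be checked by markers independent of the members. The 4 embryo markers found did not check the bottom part either, because their sum there was 24.3 to 29.8 before pollination and 6.68 to 11.0 at 4 DAP. At 4 DAP OSH1, a homeobox gene of meristems, averaged 0.0551 in the top and 3.76 in the bottom part, while ROC1, a homeobox gene of the epidermis, averaged 5.70 in the top and 4.73 in the bottom part. The 3 anther and pollen markers found summed to 0.371 to 0.732 over all arrays of the series.

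The name late onset at 4 DAP fits these probe sets only in part, because 174 of 200 had made 25% or more of the rise by 3 DAP in at least one part. In the top part the median member value was 0.129 to 0.249 on the 7 arrays up to 2 DAP, then 1.29 and 0.789 at 3 DAP, and 1.84, 2.39 and 4.02 at 4 DAP. The bottom part had medians of 0.155 to 0.246 on the 9 arrays up to 2 DAP, then 0.766, 0.522 and 0.237 at 3 DAP, and 1.07, 1.18 and 1.27 at 4 DAP. Both top arrays and bottom replicates 1 and 2 of 3 DAP thus lay between the early arrays and those of 4 DAP, and bottom replicate 3 of 3 DAP lay within the range of the early arrays. The median log2 rise that formed the score was 2.65 in the top part (0.92 to 7.08) and 1.60 in the bottom part (0.91 to 6.16), and it was larger in the top part for 187 of 200 members. The smaller of the 2 values, the score, had a median of 1.58.

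**Figure D1:**
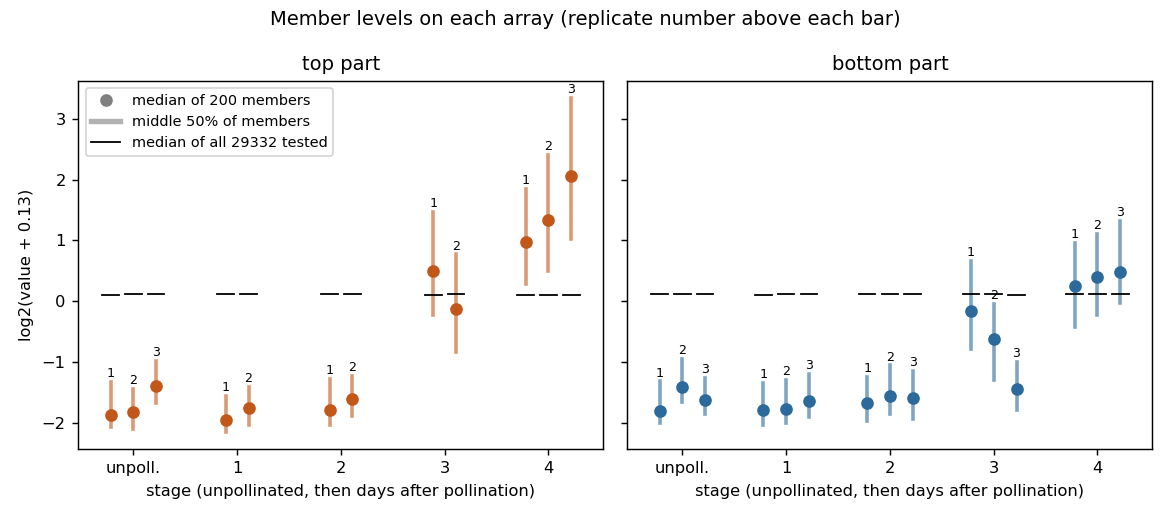
Each point is the median log2(value + 0.13) of the 200 members on 1 array and each bar the middle 50% of members, by stage, for the top part (left panel) and the bottom part (right panel). Short black lines mark the median of all 29332 tested probe sets, which stays level, while the members leave their early level at 3 DAP except on bottom replicate 3.

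Low early levels were shared by most members: 184 had a mean under 1 in all 6 groups up to 2 DAP, and 102 of these had a mean above 1 at 4 DAP in both parts. Every 4 DAP array lay above all earlier arrays up to 2 DAP for 198 members in the top part and 188 in the bottom part, against 10.7% and 4.69% of all probe sets tested. For the 3 DAP arrays the same held for 161 members in the top part and 48 in the bottom part, against 9.89% and 1.43%. The rule used the early and 4 DAP arrays, so nothing is read from these counts. At 4 DAP the median difference between the parts was 1.04 on the log2 scale, top minus bottom, against -0.041 over all probe sets tested, and 184 members were higher in the top part. This too rests on arrays that the rule used.

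Taking the rise to 4 DAP as 100%, the median member had reached 64.4% of it at 3 DAP in the top part and 39.9% in the bottom part. The array values behind these were 72.6% and 52.2% in the top part and 74.8%, 46.1% and 2.13% in the bottom part, so the low bottom median rests on replicate 3. Without replicate 3 of 2, 3 and 4 DAP the bottom median was 63.4%. Of the 200 members, 62 in the top part and 3 in the bottom part had passed 75% of their rise, 103 and 149 lay between 25% and 75%, and 35 and 48 lay under 25%. With all arrays the share was larger in the top part for 171 members. This count and those of members past 75% or under 25% were not repeated without bottom replicate 3. The 3 DAP mean was above that of 4 DAP for 15 members in the top part and 1 in the bottom part.

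**Figure D2:**
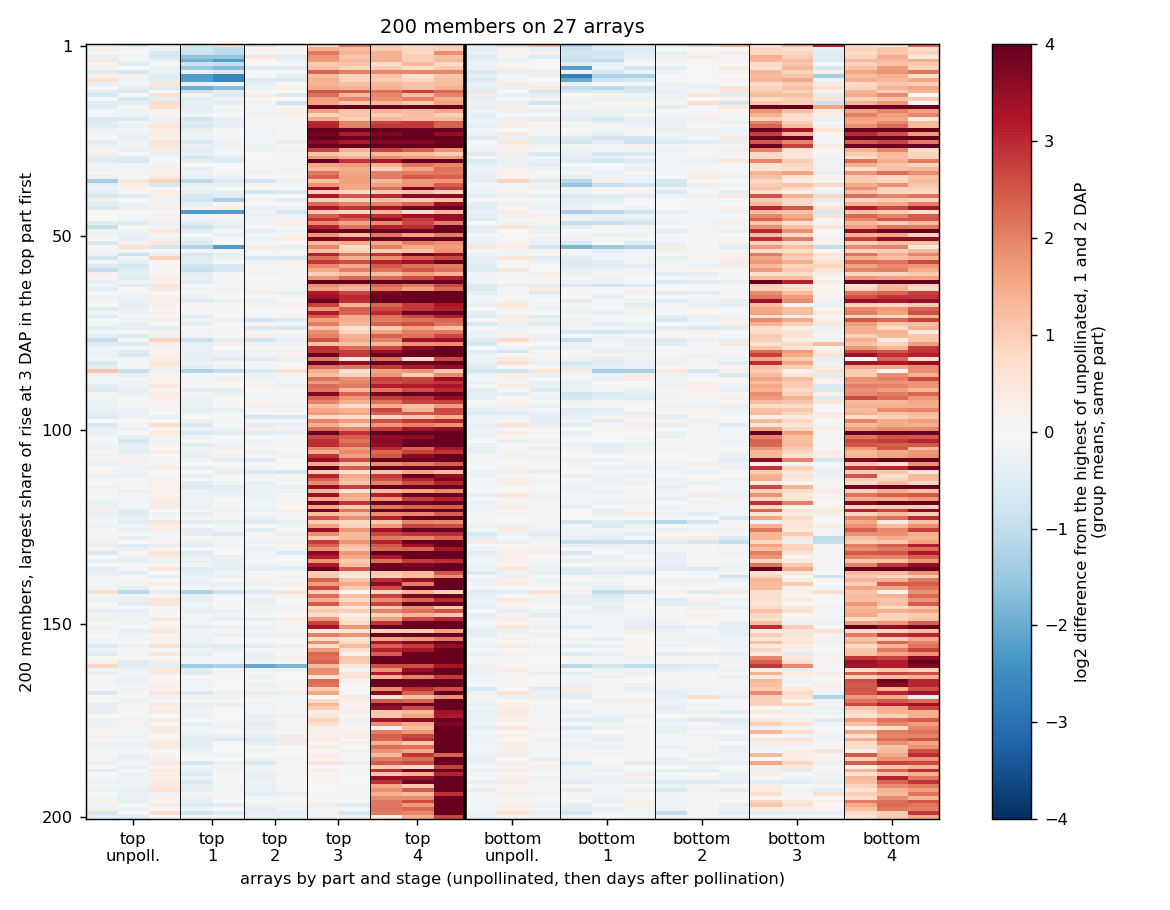
Each row is 1 of the 200 members and each column 1 of the 27 arrays, the top part left of the bottom part and stages in order, with colour for the log2 difference from the highest of the unpollinated, 1 and 2 DAP group means of the same part. Rows run from the largest to the smallest share of the rise reached at 3 DAP in the top part, and the lowest rows are pale at 3 DAP in both parts and deepest on top replicate 3 of 4 DAP.

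The members did not share 1 timing. A set of 26 had reached under 25% of the rise at 3 DAP in both parts, and its named genes were the seed allergens RA5 and RAG2, the tonoplast aquaporin OsTIP3;1 and the glutelin GluB5. The other 174 held the rest of the named members, among them Wx and the endosperm factor NF-YB1. On the 4 DAP arrays the 26 late members were also the most uneven. Top replicate 3 was the highest of the 3 arrays for all 26, with a median log2 difference of 2.23 from the mean of replicates 1 and 2, and for 121 of the other 174, with a median of 0.51. In the bottom part replicate 3 was highest for 18 of the 26 (median 0.60) and 94 of the 174 (median 0.22). The 18S control was 0.265, 0.467 and 18.8 on top replicates 1, 2 and 3 of 4 DAP, and its part in the late members' values was not tested. These sets were formed from the share of the rise, which uses the early, 3 DAP and 4 DAP values, and get no test. A high value on a single 4 DAP array enlarges the rise and lowers the share. The unevenness at 4 DAP is therefore not independent of how the late set was formed.

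**Figure D3:**
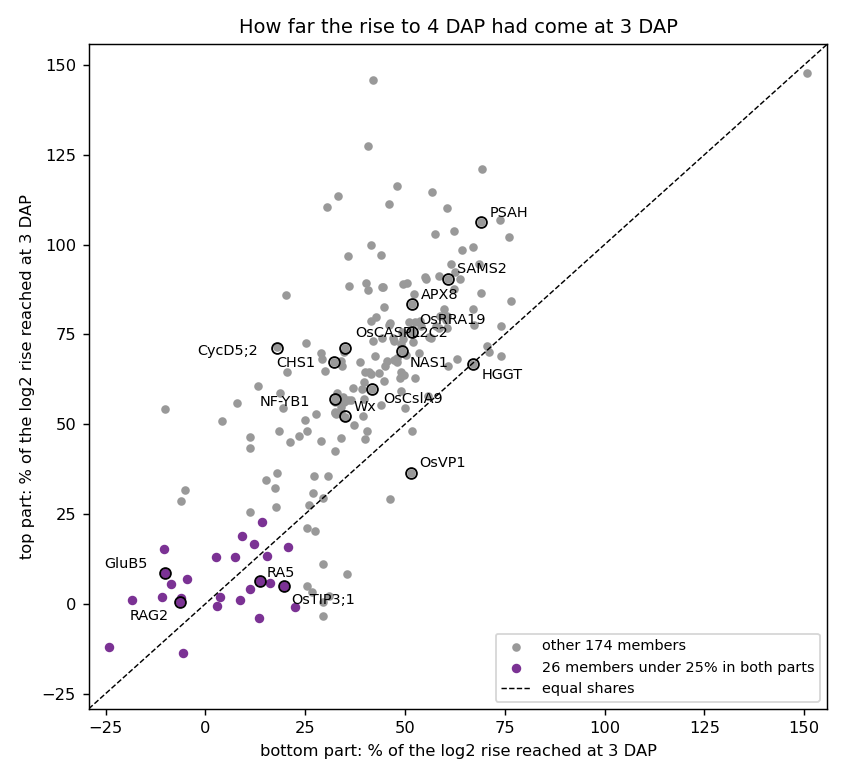
Each point is 1 member, placed by the percent of its log2 rise to 4 DAP reached at 3 DAP in the top part (vertical axis) and in the bottom part (horizontal axis), with the 17 named members circled. Points of 171 members lie above the dashed line of equal shares, and the 26 members under 25% in both parts form the cluster near the origin. All arrays are included, also bottom replicate 3 of 3 DAP.

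Among genes of starch synthesis Wx (LOC4340018), the granule-bound starch synthase, had the second highest score of all members and the highest of the named ones. In the top part its value was 0.0748 to 0.297 on the 7 arrays up to 2 DAP (median 0.107), 8.87 and 1.57 at 3 DAP, and 24.3, 51.2 and 54.4 at 4 DAP. The bottom part had 0.101 to 0.334 up to 2 DAP (9 arrays, median 0.136), 6.68, 0.850 and 0.169 at 3 DAP, and 15.2, 11.2 and 17.4 at 4 DAP. At 3 DAP the replicates of each part differed more than the parts did, and all 4 DAP arrays of each part lay above all its 3 DAP arrays. The rise was 135-fold in the top part and 42.8-fold in the bottom part, on the log2(value + 0.13) scale that understates it. All 4 probe sets of Wx on the list of members rose, by 5.23 to 7.08 in the top part and 3.05 to 5.42 in the bottom part. Their shares of the rise at 3 DAP were 29.52% to 52.15% in the top and 27.02% to 34.95% in the bottom part, highest for the probe set shown. For that probe set the difference between the parts at 3 DAP did not pass the test (log2 1.63 ± 0.79 SE, limma adjusted p = 0.234). The other Wx probe sets differed by 0.70 to 1.09 and did not pass either.

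SAMS2 (LOC4326996), which makes S-adenosylmethionine, the methyl donor of the cell, was among the earlier members. Its value was 3.60 and 2.76 at 3 DAP and 3.87, 3.87 and 4.48 at 4 DAP in the top part. Bottom values were 2.28, 1.50 and 0.281 at 3 DAP and 2.14, 2.58 and 1.70 at 4 DAP, and no array up to 2 DAP exceeded 0.463 in either part. In the top part all 4 DAP arrays lay above both 3 DAP arrays, and in the bottom part the days overlapped. By 3 DAP this probe set had made 90.5% of its rise in the top part and 60.9% in the bottom part. The other tested probe set of SAMS2 disagreed, with a score of -0.49. HGGT (LOC4341663), the enzyme that commits homogentisate to tocotrienols, the vitamin E form of cereal grains, was 1.03 and 0.687 at 3 DAP and 1.26, 1.80 and 1.85 at 4 DAP in the top part. HGGT values in the bottom part were 0.594, 0.506 and 0.294 at 3 DAP and 0.637, 0.637 and 0.732 at 4 DAP. Its 3 DAP arrays lay above every early array of the same part, also on bottom replicate 3, and its share of the rise was alike in the parts (66.7% in the top and 66.9% in the bottom part).

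CHS1 (LOC4350636), the chalcone synthase that opens flavonoid synthesis, had values of 1.75 and 0.940 at 3 DAP and 1.75, 2.37 and 3.27 at 4 DAP in the top part. Its bottom values were 1.30, 0.800 and 0.228 at 3 DAP and 1.81, 1.59 and 1.23 at 4 DAP. Days 3 and 4 touched at 1.75 in the top part and overlapped at 1.23 to 1.30 in the bottom part, where replicate 3 was the lowest at both days. Another tested probe set of CHS1 scored -0.0038. NAS1 (LOC4332608), an enzyme that makes the metal chelator nicotianamine, was 1.19 and 0.719 at 3 DAP and 1.55, 1.35 and 1.95 at 4 DAP in the top part. Its bottom values were 0.487, 0.320 and 0.191 at 3 DAP and 0.458, 0.601 and 0.533 at 4 DAP. At both days every top array lay above every bottom array.

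Regulators among the members were NF-YB1, OsRRA19, OsVP1 and CycD5;2. NF-YB1 (LOC4330587), a nuclear factor Y subunit known from rice endosperm, was 0.861 and 0.746 at 3 DAP and 1.04, 2.16 and 2.74 at 4 DAP in the top part. Its level in the bottom part was 0.543, 0.396 and 0.259 at 3 DAP and 0.891, 0.878 and 1.07 at 4 DAP. In each part all its 4 DAP arrays lay above all its 3 DAP arrays. OsRRA19 (LOC4345758), by its name a type-A response regulator of cytokinin signalling, was 0.919 and 1.33 at 3 DAP and 1.32, 1.73 and 2.55 at 4 DAP in the top part. Its top replicate 2 exceeded replicate 1 at 3 DAP, the reverse of the order in 173 of 200 members, and the days touched there. OsRRA19 had 0.678, 0.651 and 0.217 at 3 DAP and 0.980, 0.896 and 0.889 at 4 DAP in the bottom part. OsVP1 (LOC4324314), the B3 factor Viviparous1 of seed maturation and abscisic acid response, had the lowest top-minus-bottom difference of the named members at 3 DAP. Its 3 DAP values were 0.215 and 0.246 in the top part and 0.329, 0.391 and 0.459 in the bottom part, without overlap, and bottom replicate 3 was the highest. The difference did not pass the test over all probe sets (log2 -0.53 ± 0.23 SE, limma adjusted p = 0.190). At 4 DAP OsVP1 was 0.380, 0.404 and 0.680 in the top part and 0.498, 0.553 and 0.737 in the bottom part. CycD5;2 (LOC4352668), a D-type cyclin of the start of the cell cycle, was near 1 on the early arrays (0.877 to 1.55 in the top and 0.929 to 1.52 in the bottom part). Its values were 3.43 and 2.39 at 3 DAP and 3.08, 4.83 and 3.50 at 4 DAP in the top part, and 2.34, 1.69 and 1.14 and then 4.00, 2.53 and 4.03 in the bottom part. The days overlapped in the top part and did not in the bottom part. The other tested probe set of CycD5;2 disagreed, with a score of -1.02.

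OsCslA9 (LOC4341571), of a cellulose synthase-like family known for making mannans, had the lowest score of the 200. Its top values were 2.18 to 4.07 up to 2 DAP, then 7.37 and 5.21 at 3 DAP, and 7.61, 10.3 and 9.21 at 4 DAP. Its bottom values were 1.33 to 1.99 up to 2 DAP, then 3.51, 2.33 and 1.35 at 3 DAP, and 3.62, 3.70 and 2.65 at 4 DAP. Every top array of every stage lay above every bottom array of that stage. OsCASPL2C2 (LOC4328486), a membrane protein of the Casparian strip protein-like family, was 0.782 and 0.331 at 3 DAP and 0.654, 0.900 and 0.934 at 4 DAP in the top part. Its bottom values were 0.721, 0.618 and 0.318 at 3 DAP and 1.24, 1.22 and 0.498 at 4 DAP, with replicate 3 the lowest at both days. The days overlapped in both parts.

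Both PSAH and APX8, which work in the chloroplast, were low at 1 DAP in the top part. PSAH (LOC4339593), subunit H of photosystem I, was 3.30 to 4.76 in unpollinated top samples, 1.12 and 1.33 at 1 DAP, and 4.17 and 5.46 at 2 DAP. It then reached 13.5 and 12.4 in the top samples of 3 DAP and 12.8, 11.2 and 12.7 in those of 4 DAP. PSAH in the bottom part was 2.79 to 5.02 before pollination, 1.69 to 2.08 at 1 DAP, 3.03 to 5.42 at 2 DAP, 5.84 to 8.59 at 3 DAP, and 7.17 to 11.6 at 4 DAP. It dipped at 1 DAP in both parts and was at its 4 DAP level by 3 DAP in the top part. APX8 (LOC4329643), an ascorbate peroxidase of the chloroplast, had 0.859 to 1.24 before pollination and 0.550 and 0.344 at 1 DAP in the top part, followed by 2.24 and 2.02 at 3 DAP and 2.55, 2.23 and 2.58 at 4 DAP. Bottom values of APX8 were 1.51, 1.31 and 0.483 at 3 DAP and 1.34, 1.52 and 1.37 at 4 DAP. Over all members 11 in the top part and 5 in the bottom part lay more than 1 log2 unit below the unpollinated mean at 1 DAP. The rule used these arrays and the share of all probe sets was not counted, so nothing is read from this or the next count. Of the 9 members with a mean above 1 in all 6 groups up to 2 DAP, 5 had that dip in the top part. Among these, LOC4344899 had means of 15.3, 3.48, 13.3, 41.2 and 35.7 in the top part from unpollinated to 4 DAP and LOC4335799 had 10.6, 1.80, 6.81, 22.7 and 20.9, both chosen after their values were seen and without a gene name in the tables. The summed value of the 5 green pericarp markers moved with these members in the top part, with 38.1 to 63.9 before pollination, 9.91 to 13.5 at 1 DAP, 54.3 to 63.9 at 2 DAP, 144 to 157 at 3 DAP, and 141 to 155 at 4 DAP. Most of the sum came from CAB2R, with means of 31.2 before pollination and 94.4 at 3 DAP. The markers LOC4333359 (8.37 and 39.9) and LOC4351966 (3.03 and 12.7) also rose. RCA did not regain its start, with means of 7.69, 1.01, 2.19, 3.44 and 5.84 from unpollinated to 4 DAP. RBCS1 stayed at 0.0477 to 0.0922. The part of the green pericarp markers in the members' values was not tested.

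The named genes of the late set code for proteins known from seeds. RA5 (LOC4342727), a small seed allergen, was 0.590 and 0.405 at 3 DAP and 2.49, 3.77 and 16.1 at 4 DAP in the top part, and 0.595, 0.601 and 0.333 and then 1.29, 2.28 and 2.83 in the bottom part. RAG2 (LOC4342723), a second allergen of the inhibitor family also called RA14, was 0.159 and 0.164 at 3 DAP and 0.889, 1.41 and 7.29 at 4 DAP in the top part. RAG2 values in the bottom part were 0.254, 0.146 and 0.120 at 3 DAP and 0.325, 0.693 and 0.854 at 4 DAP. For these probe sets of RA5 and RAG2 the 3 DAP arrays overlapped the early ones, and all 4 DAP arrays lay above all 3 DAP arrays of the same part. A tested probe set of RAG2 outside the members scored -0.041.

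OsTIP3;1 (LOC4348981), of the aquaporin class found on seed storage vacuoles, was 0.161 and 0.184 at 3 DAP and 0.825, 0.670 and 8.43 at 4 DAP in the top part. Its bottom values were 0.168, 0.215 and 0.289 at 3 DAP and 0.215, 0.578 and 1.57 at 4 DAP, and the days overlapped there but not in the top part. GluB5 (LOC4328968), a glutelin, was 0.229 and 0.181 at 3 DAP and 0.199, 0.551 and 7.56 at 4 DAP in the top part, and 0.174, 0.168 and 0.209 and then 0.254, 0.429 and 1.13 in the bottom part. For GluB5 the 3 and 4 DAP arrays of the top part overlapped, and 1 array made most of the rise. Without top replicate 3 of 4 DAP the log2 rise in the top part was 0.68 for GluB5, against 2.02 with it, and GluB5 was no longer among the 200. Without that array the rise of OsTIP3;1 was 1.67, against 2.76 with it, that of RAG2 2.12, against 2.98, and that of RA5 2.58, against 3.36. GluB5, OsTIP3;1 and OsVP1 dropped out of the 200 without bottom replicate 3 of 4 DAP, and GluB5 also without bottom unpollinated replicate 1 or 3. Named members outside the late set were not all stable either. OsCslA9 and APX8, which score near the limit, dropped out in several settings with a single array left out. NAS1, OsCASPL2C2 and OsVP1 also dropped out in other such settings.

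**Figure D4:**
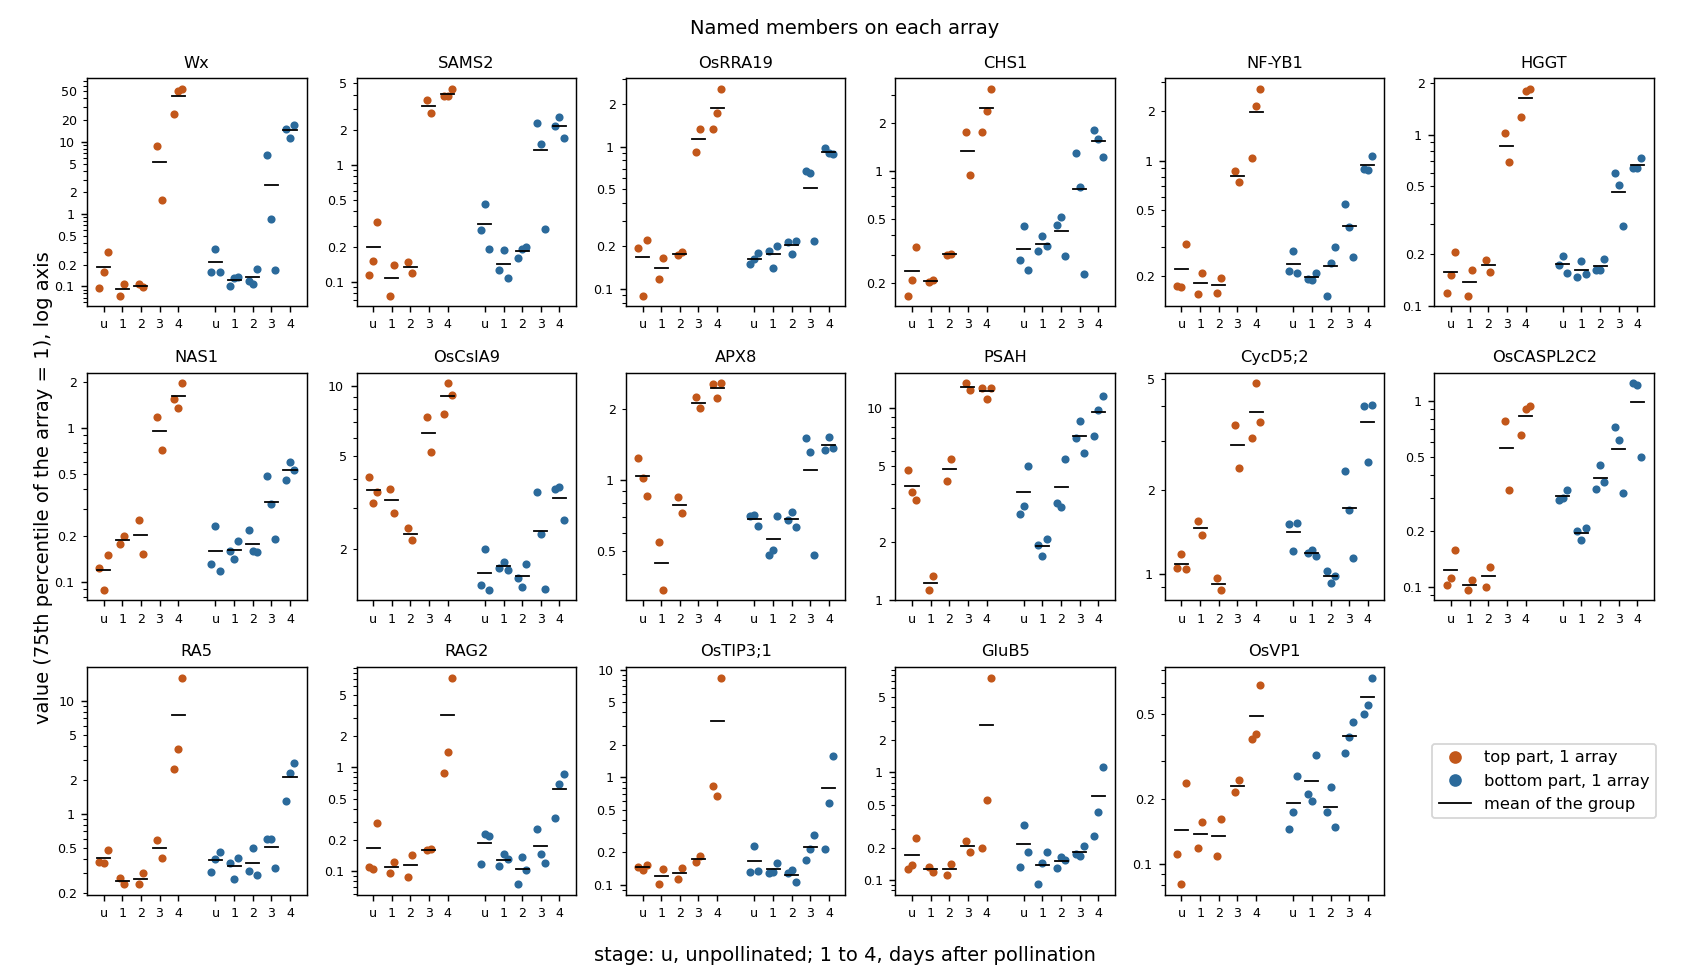
Each panel shows 1 of the 17 named members with its value on every array (points, log axis, 1 equals the 75th percentile of the array) by stage, the top part left of the bottom part, and the mean of each group as a line. The first 12 panels have intermediate or full values at 3 DAP in the top part, while RA5, RAG2, OsTIP3;1 and GluB5 are near their early values at 3 DAP and have their highest value on top replicate 3 of 4 DAP.

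Whether the members differed between the parts at 3 DAP was the one comparison whose arrays had not entered the score. It is not fully independent of the score, because same-numbered bottom arrays of 3 and 4 DAP deviated together (r 0.63, 0.62 and 0.75). Of the members called here, 67 also passed the filter with the 3 DAP arrays left out. Of the 200, 69 were called higher in the top part at an adjusted p under 0.05 in limma, against 3.79% of all probe sets tested (1111 of 29332). None was called higher in the bottom part in limma, against 1.57%. The median difference of the members was 0.96 on the log2 scale, against 0.0052 over all probe sets tested, and 175 were higher in the top part. Both top arrays lay above all 3 bottom arrays for 99 members, against 18.4% of all probe sets tested. The called members differed by 0.75 to 2.81, with a median of 1.42, and 32 of the 69 had 1 gene in the tables. All 69 belonged to the 174 members outside the late set. The late set was formed from low shares of the rise at 3 DAP in both parts. The same 3 DAP values thus helped to fix this split, and nothing is read from it.

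**Figure D5:**
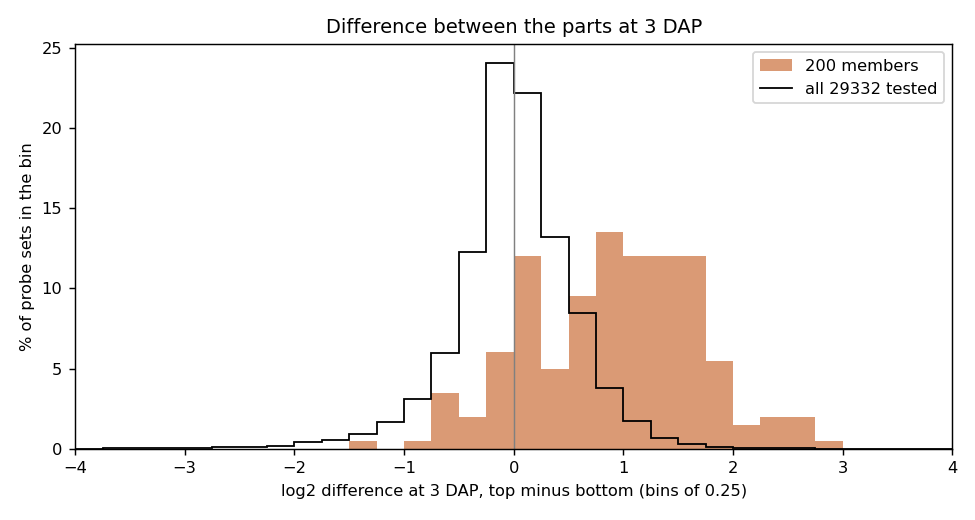
The filled steps give the percent of the 200 members, and the black outline the percent of all 29332 tested probe sets, in bins of the log2 difference between the top and the bottom part at 3 DAP. The members centre on 0.96 and range from -1.25 to 2.81, while the tested probe sets centre near 0.

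The named members called higher in the top part at 3 DAP were OsCslA9, NAS1, OsRRA19, APX8 and HGGT. OsCslA9 averaged 6.29 ± 1.53 in the top part (SD, n = 2) and 2.39 ± 1.08 in the bottom part (SD, n = 3), a log2 difference of 1.42 ± 0.27 SE (limma adjusted p = 0.00513). NAS1 averaged 0.952 ± 0.330 in the top part (SD, n = 2) and 0.333 ± 0.148 in the bottom part (SD, n = 3), a difference of 1.24 ± 0.24 (limma adjusted p = 0.00505). OsRRA19 differed by 1.04 ± 0.29, APX8 by 1.00 ± 0.28 and HGGT by 0.75 ± 0.20 (limma adjusted p = 0.0373, 0.0396 and 0.0335). Without bottom replicate 3 of 3 DAP OsCslA9 and NAS1 stayed called at 1.08 and 1.00, and OsRRA19, APX8 and HGGT did not pass at 0.64, 0.55 and 0.52. The other 12 named members did not pass, with differences between 1.63 for Wx and -0.53 for OsVP1. SAMS2 (1.49 ± 0.45), PSAH (0.87 ± 0.27), NF-YB1 (0.85 ± 0.28) and CycD5;2 (0.75 ± 0.24) had adjusted p-values of 0.0590, 0.0628, 0.0786 and 0.0731 in limma.

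The count of members higher in the top part rested on single arrays. It was 23 without bottom replicate 3 of 3 DAP, when 322 of all 29332 probe sets were called higher, 120 without bottom replicate 1 (2348 of all), and 2 without top replicate 1 (21 of all), which leaves 1 top array assumed to vary like the other groups. With only the 5 arrays of 3 DAP in the limma fit 0 of the 29332 probe sets, members included, were called higher in the top part. The median difference was 0.65 without bottom replicate 3, with 161 members higher in the top part, and 0.69 without top replicate 1. Other measures moved with the comparison. The 18S control was 23.9 and 25.4 on the top arrays of 3 DAP and 0.200, 2.37 and 9.26 on the bottom arrays. With the 18S signal as a covariate 71 members were called higher in the top and 1 in the bottom part, among 1764 and 676 of all probe sets. The green pericarp markers summed to 157 and 144 in the top part and 94.5, 89.8 and 20.3 in the bottom part, and the nucellus and ovule markers (4 genes) to 95.4 and 70.8 in the top and 78.8, 53.5 and 45.1 in the bottom part. The part of tissue makeup in the difference was not tested.

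The step at 3 DAP could be set against 2 DAP in each part, as a description because the 2 DAP arrays helped to choose the members. In the top part 126 members were called higher at 3 than at 2 DAP in limma, beside 1.44% of all probe sets tested, and in the bottom part 6, beside 0.0511%. None was called lower in limma, beside 0.76% in the top and 0.017% in the bottom part. All 3 DAP arrays lay above all 2 DAP arrays for 181 members in the top part, beside 23.4%, and for 94 in the bottom part, beside 5.56%. The bottom count was 72 without replicate 3 of 3 DAP, among 178 of all probe sets, and 14 with the replicate number as a block, among 37. Taken array by array, 179 and 163 members on the top replicates 1 and 2 of 3 DAP exceeded all 7 earlier top arrays, where 20.2% and 14.3% of all probe sets tested did. On bottom replicates 1, 2 and 3 of 3 DAP 181, 153 and 54 members exceeded all 9 earlier bottom arrays, where 12.1%, 8.24% and 25.7% of all probe sets tested did. Replicate 3 thus had the fewest members and the most probe sets overall above the early range.

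From 3 to 4 DAP, 40 members were called higher at 4 DAP in the top part in limma, beside 0.174% of all probe sets tested, and 3 in the bottom part, beside 0.0102%. None was called lower, beside 0.00682% in the top part and 0.0% in the bottom part. All 4 DAP arrays lay above all 3 DAP arrays for 127 members in the top part and 125 in the bottom part, beside 11.0% and 4.87%. The 3 called in the bottom part were LOC4343901 and a pair of probe sets with no gene in the tables. The bottom count was 90 without replicate 1 of 3 DAP, among 210 of all probe sets, and 1 with the replicate block, which was the only call. The rule used the 4 DAP arrays, so nothing is read from these counts.

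Most genes of the pathways around the named members were no members. Of 19 lists of genes matched by symbol, 10 held a member. Starch synthesis had 1 member, Wx, among 7 genes tested, and at 3 DAP none of the 7 passed between the parts (median log2 difference 0.65, top minus bottom, against 0.0052 over all probe sets). Among those not members, and chosen after their values were seen, ALK (LOC4340567), a soluble starch synthase, differed by 1.62 ± 0.54 and AGPS2 (LOC4345339), a subunit of ADP-glucose pyrophosphorylase, by 1.17 ± 0.39 (SE). Seed storage proteins had GluB5 among 3 tested and seed allergens and inhibitors had RA5 and RAG2 among 8, with no call in either direction and medians of 0.093 and -0.067. The photosynthesis list had PSAH among 7, of which 2 were higher in the top part at 3 DAP and none lower, with a median of 1.18. These, named after their values were seen, were the Rubisco small subunit OsrbcS (LOC4351966), at 12.7 in the top and 2.68 in the bottom part (2.31 ± 0.37, limma adjusted p = 0.00182), and the photosystem II protein PSB28 (LOC4326537), at 1.18 ± 0.29.

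In 4 other lists the calls at 3 DAP ran both ways. The list of seed transcription factors, which took in whole families by symbol such as MADS and MYB, had OsVP1 and NF-YB1 among 47 tested. Of these, 2 were higher in the top part, OsMADS14 and OsMADS5, and 3 lower, OsMADS2, OsMADS16 and OsMYB2. These calls are thus of MADS and MYB genes, and the median of the list was -0.093. Cell wall genes had OsCslA9 among 55, with 2 higher and 1 lower (median 0.073), and hormone genes had OsRRA19 among 87, with 2 higher and 3 lower (median -0.15). Transporters had OsTIP3;1 among 65, with 1 higher and 7 lower (median -0.24). Phenylpropanoid and flavonoid synthesis had CHS1 among 8 and cell division CycD5;2 among 55, with no call in either direction (medians -0.29 and 0.30). The other 9 lists held no member: sugar transport and sucrose cleavage, carbon and nitrogen enzymes, lipid and late seed proteins, lipid transfer proteins, proteases, defence proteins, protein folding in the endoplasmic reticulum, heat shock proteins, and Polycomb and DNA methylation. At 3 DAP 3 of 23 sugar genes, 2 of 18 defence genes and 1 of 42 heat shock genes were lower in the top part, 1 of 13 folding genes was higher, and the other 5 lists had no call.

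The members shared few features that the rule had not used. By gene order in RefSeq, 4 of the late set's genes lay close together: LOC4342729 and LOC4342730, which share a pair of member probe sets, are next to RA5 and to each other, and RAG2 lies on the other side of RA5 with 3 genes between. Another member gene, LOC4342715, follows beyond RAG2 with 6 genes between. One member probe set stands for RBCS1 and its neighbours LOC4352016 and LOC4352021, a Rubisco small subunit gene by the name of the first, which is also 1 of the 5 green pericarp markers through another probe set. Probe sets whose ID ends in x or s, which by Affymetrix naming can bind more than one transcript, were 14 of the 26 late members, 39 of the other 174, and 22.7% of all probe sets tested. The values of RA5, RAG2, OsTIP3;1 and Wx come from such probe sets and may include related genes.

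Of the 200 members 105 had 1 gene in the tables, 4 had several and 91 had none. The 105 stood for 93 genes, of which 17 (21 probe sets) had a name other than a locus number, and all 17 are described above. Besides Wx and RAG2, 5 genes known only by locus number had 2 or more member probe sets, led by LOC4343901 with 4 (scores 1.18 to 4.22) and LOC4324532 with 3 (1.93 to 2.61). Member genes had 16 further tested probe sets outside the 200, of which 10 scored above 0 and 3 above the lowest member score, and 18 that were not tested. The highest score of all, 6.16, belonged to Os.16752.1.S1_at, which has no gene in the tables. Its values were 52.4 and 33.9 at 3 DAP and 36.0, 44.1 and 51.6 at 4 DAP in the top part, and 20.9, 9.81 and 0.917 and then 22.7, 20.2 and 32.2 in the bottom part, and it was called higher in the top part at 3 DAP (log2 2.81 ± 0.70 SE, limma adjusted p = 0.0239). OsAffx.11299.1.S1_s_at, the next without a gene, was called too (2.62 ± 0.58). At the edge of the group the last 3 members scored 0.918, 0.917 and 0.915 and the next 3 probe sets 0.913, 0.910 and 0.910, so the limit falls in an even run of values.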

How the data were processed

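Each array, an Affymetrix design with 57381 probe sets, carried biotin-labelled cRNA made from the total RNA of 1 sample. The deposited values were linear intensity, 1 per probe set and array, read with GCOS 1.3 per the submitters' processing notes. From the values themselves, each array had been divided by its own 75th percentile. No label or header states the summary algorithm, background step, detection calls or genome build. The number of arrays limits the precision. The 123 control probe sets were left out.

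The pseudocount 0.13 was the 20th percentile of all rice values, and the filter kept a mean over arrays above the median value of 0.264. All 27 arrays entered 1 fit of 10 group means with limma 3.58.1 in R 4.3.3 (lmFit, eBayes with intensity trend; 17 residual degrees of freedom, prior 3.68), two-sided, with Benjamini-Hochberg adjustment over 29332 probe sets and calls at an adjusted p under 0.05. Tables and figures used Python 3.11.15. On simulated data for the parts at 3 DAP with 29332 probe sets, 50% of changes of log2 1 and 92% of changes of log2 2 were called, with 4 calls among unchanged probe sets. The simulation drew independent normal values, with the same residual SD in all groups for each probe set. The members' root mean square log2 deviations on the real bottom arrays of 3 DAP were 0.784, 0.277 and 0.888. The simulated rates therefore hold for that setting only.

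Same-numbered bottom arrays deviated together from their group means (r 0.29, 0.58 and 0.70 between 3 and 2 DAP, and 0.63, 0.62 and 0.75 between 4 and 3 DAP), so the numbers may pair them. The main fit did not use this pairing, so the main bottom counts between days ignore it. The replicate block was an alternative only, and it ran over both parts together. The parts share 2 numbers at 3 DAP (r 0.31 and 0.13), too few pairs to take them as paired, and r between top arrays was -0.039 between 3 and 2 DAP, and 0.020 and 0.071 between 4 and 3 DAP.

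Genes came from a platform table and a RefSeq table. The RefSeq coordinates served only to put genes in order along chromosomes, since the builds are not stated. For a listed gene with several probe sets the brightest stood for it. Named members were the 20 of highest score with an informative gene name (17 had one), up to 4 per list, and the 5 largest called differences each way among informative names. The 3 scores on each side of the limit and the 2 highest members without a gene are also given. The members, lists and naming rule were chosen with earlier results of these data known. Alternatives covered the pseudocount, filter, quantile normalization, arrays in the fit, 18S covariate, replicate block, group medians and each array left out. Promoter and protein sequences were not analysed here.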

Additional observations from a re-analysis of the deposited data

How the results depend on the processing

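Membership held for 150 to 191 of the 200 under the other pseudocounts (180 at 0.05 and 150 at 0.5), quantile normalization (181), no filter (191) and group medians (177), and for 182 to 198 with single arrays left out. The median share of the rise at 3 DAP ran from 52.2% to 72.6% in the top and from 20.7% to 61.8% in the bottom part with single arrays left out, and the median difference of the parts at 4 DAP from 0.82 to 1.17. Members higher in the top part at 3 DAP, 69 as reported, numbered 52 to 71 under the other pseudocounts, filter, scaling, 18S covariate and replicate block. They numbered 0 with only the arrays compared, a setting that gave 131 for 3 against 2 DAP in the top part. Root mean square log2 deviations of the members were 0.784, 0.277 and 0.888 on the bottom and 0.434 on both top arrays of 3 DAP. On arrays up to 2 DAP they were 0.143 to 0.333, and the cause of the 0 was not tested. The count was 23 to 120 with single bottom arrays left out. Leaving out a top array left 1, with a median difference of 0.69 or 1.15. Without bottom replicate 3 of 2, 3 and 4 DAP, an alternative added after the data were seen, the count was 26 (415 of all probe sets). Members higher in the bottom part numbered 0 in every setting except 1 with the 18S covariate. With single arrays left out, members higher at 3 than at 2 DAP numbered 54 to 120 in the top part (126 as reported) and 0 to 72 in the bottom part (6). Members higher at 4 than at 3 DAP numbered 4 to 73 in the top part (40) and 0 to 90 in the bottom part (3). For 3 against 2 DAP in the bottom part the count was 3 with pseudocount 0.5, with no filter and with the 18S covariate, 0 with only the arrays compared, 14 with the replicate block and 70 without those 3 arrays. For 4 against 3 DAP it was 62 in the top part with pseudocount 0.5 and 0 with only the arrays compared. In the bottom part it was 1 with pseudocount 0.5 and with the replicate block, 8 with quantile normalization, and 0 with only the arrays compared and without those 3 arrays. The replicate block turned no other of these counts by over 1.5 times.

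The named members RA5, OsCASPL2C2, RAG2, OsTIP3;1 and GluB5 had differences at 3 DAP near 0 that changed sign, none of them called. RA5 (-0.013) was 0.043 with quantile normalization, 0.13 with the replicate block, 0.093 and 0.099 without bottom replicates 1 and 2, and 0.20 without top replicate 2, with a range of -0.23 to 0.20 over single arrays left out. OsCASPL2C2 (-0.022) was 0.026 with quantile normalization, 0.065 with the 18S covariate, 0.16 and 0.070 without bottom replicates 1 and 2, and 0.47 without top replicate 2 (range -0.51 to 0.47). RAG2 (-0.035) was 0.15 with the replicate block and 0.15 without bottom replicate 1 (range -0.16 to 0.15), and OsTIP3;1 (-0.21) was 0.040 with the block. GluB5 (0.093) was -0.58 with the 18S covariate and -0.011 without top replicate 1. The cause was not tested for any of these. Among the 5 named calls, APX8 lost significance in 8 of 13 settings, OsRRA19 in 7, HGGT in 5, and NAS1 and OsCslA9 in 2 each, both with only the arrays compared and without top replicate 1. The block ended the call of APX8 and added one for PSAH.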
